A study of Caenorhabditis elegans with 15 samples.

Results

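The tubulin genes of C. elegans were followed in embryos depleted of 3 maternal regulators, over the first 4 h after collection. The set holds 9 genes of the 17138 genes measured, chosen by name: the α-tubulin genes tba-1, tba-2, tba-4 and mec-12, the β-tubulin genes tbb-1, tbb-2, tbb-4 and mec-7, and the γ-tubulin gene tbg-1. Each was represented by the brightest of the probe sets that carry its symbol alone, by the mean over all arrays, and the 9 genes had 12 such probe sets. Wild-type hermaphrodites (strain N2) had been injected with dsRNA for pal-1, lit-1 and mex-1, so that embryos of every group carried the same 3 knockdowns. Embryos taken by dissection at the 2- to 4-cell stage were left to develop for 0, 1, 2, 3 or 4 h at room temperature before total RNA was extracted. Each time had 3 Affymetrix arrays, called A, B and C here, and untreated embryos were not analysed here. Whether the replicates of a time had separate mothers or collection days is not stated, so the p-values cover only the spread among the arrays at hand, and this spread may be technical.

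As background, microtubules are hollow polymers of α- and β-tubulin dimers, and γ-tubulin forms the ring complexes at centrosomes on which they start to grow. In C. elegans, tba-1, tba-2, tbb-1 and tbb-2 encode the main tubulins of the early embryo, where they build the mitotic spindle, and their transcripts, like that of tbg-1, are laid down by the mother. tba-4 was taken as a general α-tubulin. Neurons of the worm use further isotypes: mec-12 and mec-7 encode the α- and β-tubulin of the special microtubules of touch receptor neurons, and tbb-4 encodes a β-tubulin of ciliated sensory neurons.

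All values are log2 expression levels from the authors' RMA processing, and a difference of 1 means a 2-fold difference. The highest value of the 15 control probe sets for bacterial transcripts that read dim on every array, 3.22, served as a mark of background. Array 1 h B has a time tag of 2 h and array 1 h C one of 3 h, against their titles, which were followed. Array 1 h B was unlike its replicates. Its hybridisation controls, RNAs added before hybridisation, averaged 11.7 on that array, against 8.64 to 11.1 on the other 14. The summed level of the 10 measured markers of the adult mother and of sperm was 10.6 on 1 h B, against 6.79 to 7.75 on the other 14 arrays, and the main results are also given without this array. Probe sets of tubulin genes can share sequence: 7 of the 9 carry the suffix s_at, used for probes common to several transcripts, and that of tba-2 carries x_at, used where cross-hybridisation is possible. The members are close copies of each other within the α and the β group, so their values are uncertain to that extent. Levels of different genes were not ranked, since they come from different probe sets.

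By the F test of limma over all 5 times, 2 of the 9 genes changed, tbg-1 (adjusted p = 0.000355) and mec-7 (adjusted p = 0.0262), while 20.5% of all 22548 probe sets did. Without array 1 h B these p-values were 0.000501 for tbg-1 and 0.0286 for mec-7. The number of the 9 genes called was 1 with centring on the array median and without 0 h A, 0 h B or 4 h A. In these settings 4063 to 4455 of all 22548 probe sets were called. The number of the 9 genes was 0 with 1 h B and 1 h C placed by their tags (9.73% of all probe sets). Other settings called more: 4 without 1 h B (21.6%) and 8 with centring on ribosomal protein genes (95.5%). With arrays weighted by their estimated precision, a setting chosen after seeing the data, the number was 5 (29.6%). tbg-1 dipped at 2 h and mec-7 was high at 4 h. The 4 bright α- and β-tubulin genes were lower on all 4 h arrays than on all 0 h arrays, by 2.54-fold to 3.89-fold, but missed the threshold over all arrays. By such position alone 13.6% of all probe sets lay lower at 4 h and 20.6% higher. The other 3 genes, tba-4, mec-12 and tbb-4, passed no test over all arrays.

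**Figure D1:**
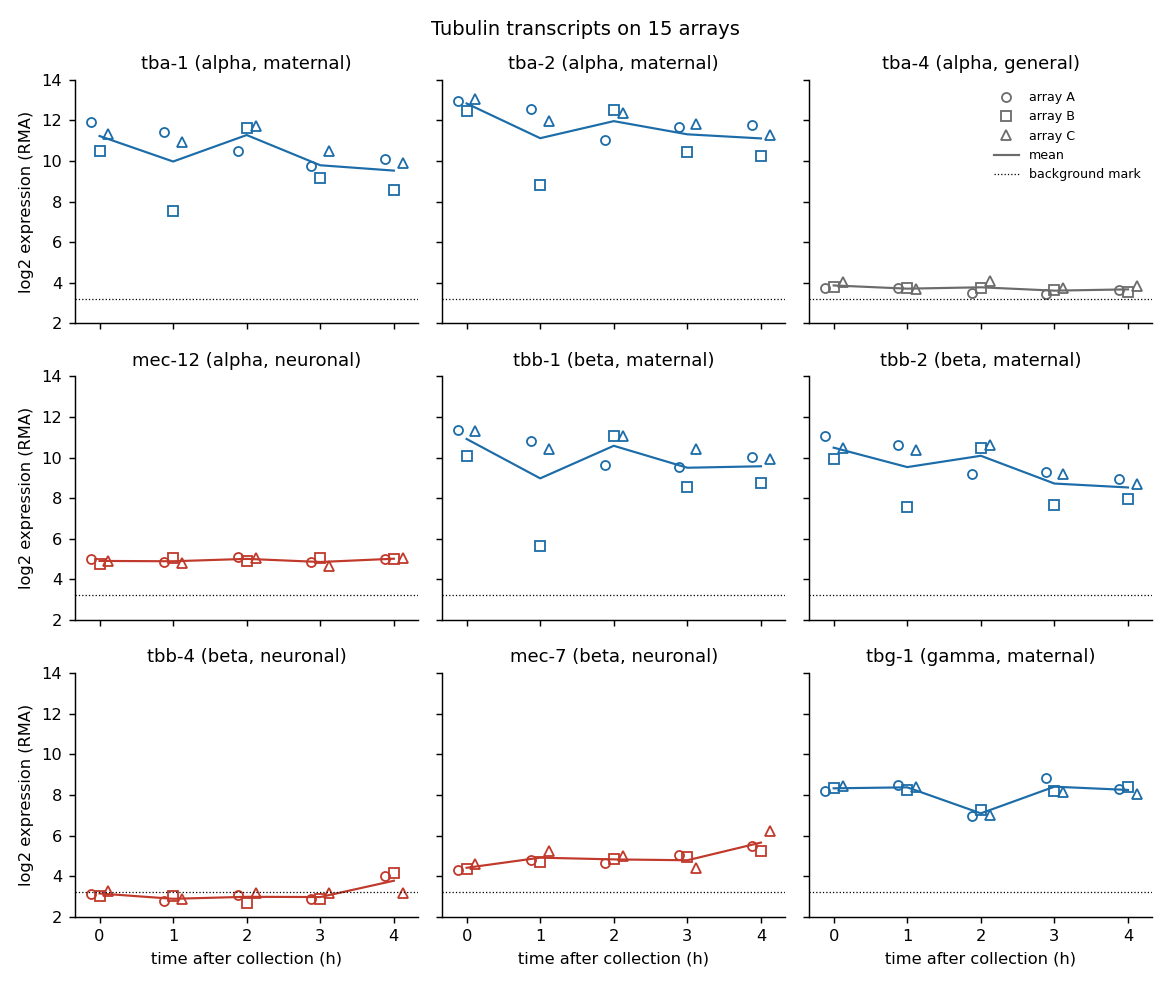
Log2 expression (vertical axis) of the 9 tubulin genes at 0 to 4 h after collection (horizontal axis), with 1 symbol per array, the mean of 3 arrays as a line and the background mark of 3.22 dotted. The 4 bright α- and β-tubulin genes share a low array 1 h B, tbg-1 is low on all 3 arrays at 2 h, and mec-7 is highest at 4 h.

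Among the α-tubulin genes of the early embryo, tba-2 read 12.96, 12.46 and 13.07 on 0 h A, B and C, 12.55, 8.84 and 11.97 at 1 h, 11.03, 12.50 and 12.36 at 2 h, 11.69, 10.42 and 11.83 at 3 h, and 11.79, 10.27 and 11.27 at 4 h. It was bright at every time, all 4 h arrays lay below all 0 h arrays, and 1 h B was the lowest array of the course. The mean was 11.11 ± 0.78 at 4 h and 12.83 ± 0.33 at 0 h (SD, n = 3 each), a difference of -1.72 ± 0.81 (SE), or 3.30-fold, that did not pass the test (adjusted p = 0.196).

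tba-1 read 11.90, 10.48 and 11.31 on 0 h A, B and C, 11.45, 7.54 and 10.93 at 1 h, 10.48, 11.61 and 11.74 at 2 h, 9.74, 9.14 and 10.48 at 3 h, and 10.10, 8.57 and 9.90 at 4 h. As with tba-2, the 4 h and 0 h arrays did not overlap. The 4 h mean was 9.52 ± 0.83 and the 0 h mean 11.23 ± 0.71 (SD, n = 3 each), a difference of -1.70 ± 0.85 (SE, adjusted p = 0.229).

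The β-tubulin gene tbb-2 read 11.05, 9.93 and 10.49 on 0 h A, B and C, 10.64, 7.58 and 10.39 at 1 h, 9.19, 10.47 and 10.61 at 2 h, 9.28, 7.69 and 9.21 at 3 h, and 8.93, 7.97 and 8.70 at 4 h. The 3 h and 4 h arrays all lay below the 0 h arrays. The mean was 8.53 ± 0.50 at 4 h and 10.49 ± 0.56 at 0 h (SD, n = 3 each), and the difference of -1.96 ± 0.73 (SE), or 3.89-fold, was the widest of the 9 genes and missed the threshold (adjusted p = 0.0965, unadjusted p = 0.0197).

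Its partner gene tbb-1 read 11.36, 10.10 and 11.30 on 0 h A, B and C, 10.83, 5.67 and 10.45 at 1 h, 9.63, 11.06 and 11.06 at 2 h, 9.53, 8.56 and 10.41 at 3 h, and 10.06, 8.74 and 9.93 at 4 h. Here the gap between the highest 4 h array and the lowest 0 h array was narrow, and 1 h B was again far below the rest. The 4 h mean was 9.58 ± 0.72 and the 0 h mean 10.92 ± 0.71 (SD, n = 3 each), a difference of -1.35 ± 1.09 (SE, adjusted p = 0.482).

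The large errors of these 4 genes came with array 1 h B, where tbb-1 lay 4.97, tba-1 3.65, tba-2 3.42 and tbb-2 2.94 below the mean of 1 h A and 1 h C on the log2 scale. On the same array the median gap over the 1160 probe sets with a mean level above 8 was -0.55, and that over all probe sets was 0.063. Without 1 h B the 4 h minus 0 h differences were the same by construction but their standard errors were smaller, and tbb-2 (SE 0.49, adjusted p = 0.0138), tba-2 (SE 0.49, adjusted p = 0.0292) and tba-1 (SE 0.51, adjusted p = 0.0362) fell by limma, while tbb-1 did not pass (SE 0.56, adjusted p = 0.129). With mec-7 that made 4 of the 9 genes called, where 18.9% of all probe sets were called and 10.7% were lower at 4 h. Leaving out both arrays with conflicting titles gave the same 3 lower genes. With 1 h B placed at 2 h and 1 h C at 3 h by their tags, tbb-2 had the lowest adjusted p of the 4 genes, 0.144. tbb-2 also fell at 3 h without 1 h B, by 1.77 on the log2 scale (adjusted p = 0.0257).

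The bright α- and β-tubulin genes also moved together within a time. At each of the 5 times a single array was the lowest of its 3 in all 4 genes: 0 h B, 1 h B, 2 h A, 3 h B and 4 h B. The same set of lowest arrays, read from these 4 genes themselves, was found for 1.08% of all probe sets and for 5.34% of the 1160 with a mean above 8. Probe sets of the 4 genes can share sequence, so they may not be 4 separate readings. A control probe set at the 3′ end of an actin gene was lowest on the same array at 4 of the 5 times, with 5.16 on 1 h B, 10.72 on 1 h A and 10.49 on 1 h C. The hybridisation controls were highest on that array at 3 of the 5 times. This actin control also lay lower on every 4 h array (9.14, 8.28 and 8.07 on A, B and C) than on every 0 h array (11.29, 10.42 and 11.24), as did the Gapdh control (6.45, 5.30 and 5.64 at 4 h, 6.92, 7.69 and 8.24 at 0 h). The part that RNA amount or quality plays in these levels, within a time or between 4 h and 0 h, was not tested.

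**Figure D2:**
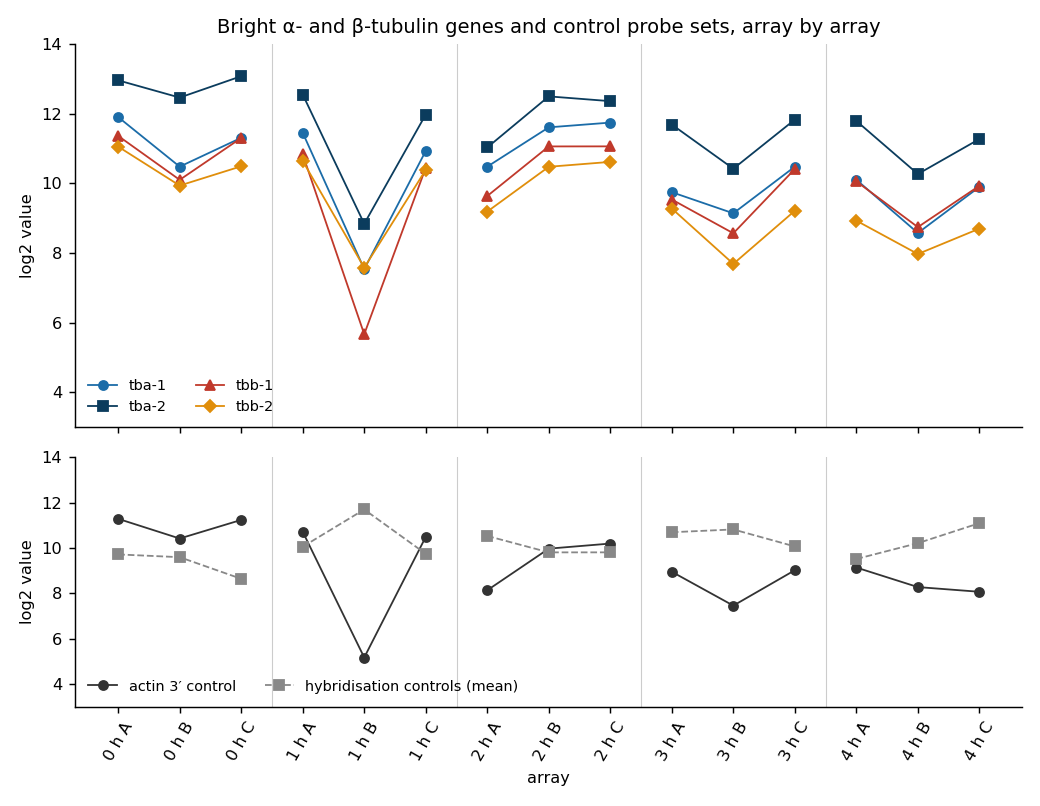
Log2 values (vertical axes) on each of the 15 arrays (horizontal axis), with lines joining the 3 arrays of a time: above, the 4 bright α- and β-tubulin genes, and below, the actin 3′ control probe set and the mean of the 18 hybridisation controls. All 4 genes are lowest on 0 h B, 1 h B, 2 h A, 3 h B and 4 h B, and on 1 h B the actin control is 5.16 and the hybridisation controls average 11.7.

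The γ-tubulin gene tbg-1 fell at 2 h and rose again at 3 h. It read 8.19, 8.35 and 8.44 on 0 h A, B and C, 8.50, 8.24 and 8.39 at 1 h, 6.98, 7.28 and 7.03 at 2 h, 8.86, 8.20 and 8.17 at 3 h, and 8.31, 8.38 and 8.05 at 4 h. All 2 h arrays lay below the other 12, which span a narrow range, and array 1 h B did not stand apart for this gene. The 2 h mean of 7.10 ± 0.16 was below the 0 h mean of 8.33 ± 0.13 (SD, n = 3 each) by 2.35-fold, a difference of -1.23 ± 0.18 (SE, adjusted p = 0.000252).

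Against 1 h tbg-1 fell at 2 h by 1.28 on the log2 scale (adjusted p = 0.000423, and 0.000866 without 1 h B), and at 3 h it rose by 1.31 ± 0.18 (SE) over 2 h (adjusted p = 0.000827). Over the whole course it changed little, with 8.25 ± 0.17 at 4 h and 8.33 ± 0.13 at 0 h (SD, n = 3 each) and a difference of -0.081 ± 0.18 (SE, adjusted p = 0.819). A fall at 2 h against both 0 h and 1 h followed by a rise at 3 h, each past the threshold, was found for 13 of the 22548 probe sets (0.0577%). The call for 2 h against 0 h was made in all 26 other settings. The calls for 2 h against 1 h and 3 h against 2 h ended with 1 h B and 1 h C placed by their tags, which puts 1 h B with its tbg-1 value of 8.24 among the 2 h arrays, and with centring on the hybridisation controls. By the tags limma called 1 of the 22548 probe sets for 2 h against 1 h and 8 for 3 h against 2 h.

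Of 60 other microtubule genes, read from 5 lists of tubulin isotypes, partners, folding, modification and binding, limma called 3 higher and 7 lower between 2 h and 0 h, where it called 7.25% and 8.53% of all probe sets. pfd-6, a subunit gene of the prefoldin that hands new tubulin to its chaperonin, was the 1 list gene with all calls of the tbg-1 dip. It averaged 10.18, 10.67, 9.13, 10.26 and 10.15 at 0, 1, 2, 3 and 4 h, with a difference of -1.05 between 2 h and 0 h (adjusted p = 0.00295) and of 1.13 between 3 h and 2 h (adjusted p = 0.00824). Of the 13 measured genes of the γ-tubulin complex and centrosome limma called 0 at 2 h against 0 h, with 3 at an unadjusted p under 0.05. gip-2, which encodes a subunit of the γ-tubulin complex, differed by -0.40 (adjusted p = 0.748), and tac-1, which acts with the microtubule polymerase gene zyg-9, by -1.24 (adjusted p = 0.225). gip-1, for another subunit, averaged 3.05 at 2 h and 3.32 at 0 h, so close to the background mark that a dip as deep as that of tbg-1 could not have been measured. The difference between tbg-1 and these genes was not tested. The 3 genes whose values over the 15 arrays were most like those of tbg-1, out of 17129 compared, were glrx-21 (Pearson's r = 0.858), ndx-4 (r = 0.857) and nduf-9 (r = 0.857). Without 1 h B the first 3 were nduf-9 (r = 0.888), mom-4 (r = 0.880) and pfd-6 (r = 0.879). The means of ndx-4, a Nudix hydrolase gene, were 9.03, 9.24, 7.00, 8.22 and 8.98 at 0, 1, 2, 3 and 4 h. They were lowest at 2 h, which the choice by likeness to tbg-1 favours.

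Among the neuronal tubulins, mec-7 rose. It read 4.32, 4.33 and 4.58 on 0 h A, B and C, 4.79, 4.70 and 5.25 at 1 h, 4.64, 4.86 and 4.97 at 2 h, 5.02, 4.93 and 4.40 at 3 h, and 5.50, 5.22 and 6.24 at 4 h. The 4 h arrays lay above the 0 h arrays, and 4 h C was the highest of all. The mean was 5.66 ± 0.53 at 4 h and 4.41 ± 0.15 at 0 h (SD, n = 3 each), 2.37-fold higher at 4 h (difference 1.24 ± 0.25, SE, adjusted p = 0.00344), and without 4 h C the difference was 0.95 (adjusted p = 0.0108).

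No hourly step of mec-7 passed the test. The difference between 4 h and 3 h was 0.87 (adjusted p = 0.191) and that between 1 h and 0 h 0.50 (adjusted p = 0.283). The other mec-7 probe set, of suffix x_at, lay near background with 3.30 ± 0.16 at 4 h and 3.06 ± 0.25 at 0 h (SD, n = 3 each) and did not pass (difference 0.24, adjusted p = 0.481). The rise depended on the scaling. It was 0.28 ± 0.62 (SE, adjusted p = 0.682) with centring on the hybridisation controls and -0.065 ± 0.28 (SE, adjusted p = 0.822) with centring on ribosomal protein genes. The median difference of all probe sets was 0.094 as deposited, -0.86 with the first of these scalings and -1.21 with the other. The mean level of the ribosomal protein genes itself ran from 9.99 to 10.4 on the 0 h arrays and from 11.5 to 11.7 on the 4 h arrays. Over the 15 arrays the genes most like mec-7 were cutl-2 (Pearson's r = 0.872), M03D4.4 (r = 0.870) and hhat-2 (r = 0.866), each with a 0 h mean below the background mark. Without 1 h B their r was 0.871, 0.868 and 0.865, and the first 3 were zag-1 (r = 0.884), Y71A12B.18 (r = 0.875) and ttbk-6 (r = 0.873).

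tbb-4 read 3.11, 3.04 and 3.28 on 0 h A, B and C, 2.77, 3.00 and 2.88 at 1 h, 3.09, 2.67 and 3.20 at 2 h, 2.88, 2.88 and 3.16 at 3 h, and 4.03, 4.15 and 3.15 at 4 h. It exceeded the background mark on 3 of the 15 arrays, 0 h C, 4 h A and 4 h B, and 4 h C stayed at the level of the earlier arrays. The 4 h mean was 3.78 ± 0.55 and the 0 h mean 3.15 ± 0.12 (SD, n = 3 each), and the difference of 0.63 ± 0.23 (SE) missed the threshold (adjusted p = 0.0857). Without 4 h C it was 0.94 (adjusted p = 0.00181), without 4 h A 0.50 (adjusted p = 0.223) and without 4 h B 0.44 (adjusted p = 0.290). Without any one 0 h array it ran from 0.58 to 0.70, with no call. With the arrays weighted by their estimated precision, a setting chosen after seeing the data, it was 0.77 (adjusted p = 0.0132). Centring on the hybridisation controls turned it to -0.33, with no call. Centring on ribosomal protein genes turned it to -0.68, called lower (adjusted p = 0.0163), as were 89.6% of all probe sets.

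mec-12 showed no change past the threshold. Its lowest value was 4.67 and its highest 5.09 over the 15 arrays, and the difference between 4 h (5.02 ± 0.03) and 0 h (4.91 ± 0.12) was 0.11 ± 0.12 (SE, adjusted p = 0.608). The general α-tubulin gene tba-4 lay just above background, from 3.46 to 4.09, with 3.67 ± 0.17 at 4 h and 3.87 ± 0.16 at 0 h (SD, n = 3 each) and a difference of -0.19 ± 0.15 (SE, adjusted p = 0.458). So close to the mark of 3.22, background limits how large a difference of tba-4 or tbb-4 could have been measured.

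Between 4 h and 0 h, where limma called 16.7% of all probe sets, it called 1 of the 9 genes higher (7.11% of probe sets) and 0 lower (9.57%), and 3 of the 9 had an unadjusted p under 0.05. By position alone 4 genes lay lower on every 4 h array than on every 0 h array and 1 lay higher, against 13.6% and 20.6% of all probe sets. For 1 h against 0 h limma called 0 of the 9 (9.38% of all probe sets), with 0 at an unadjusted p under 0.05, and 0 without 1 h B (7.36%). For 3 h against 0 h it also called 0 (15.9%), with 1 at an unadjusted p under 0.05, and for 4 h against 3 h 0 (1.26%), with 2. The single call was tbg-1 between 2 h and 0 h (15.8% of probe sets, 8.53% lower), 2 h and 1 h (9.26%, 3.25% lower) and 3 h and 2 h (2.73%, 0.825% higher). For 4 h against 0 h other settings called more of the 9 genes: 4 with array weights (21.9% of probe sets), 3 with the arrays of the 2 times alone (14.9%), 3 with hybridisation control centring (12.0%) and 8 with ribosomal protein centring (92.2%, of which nearly all, 89.6%, were lower). The comparisons with 0 h share its 3 arrays.

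**Figure D3:**
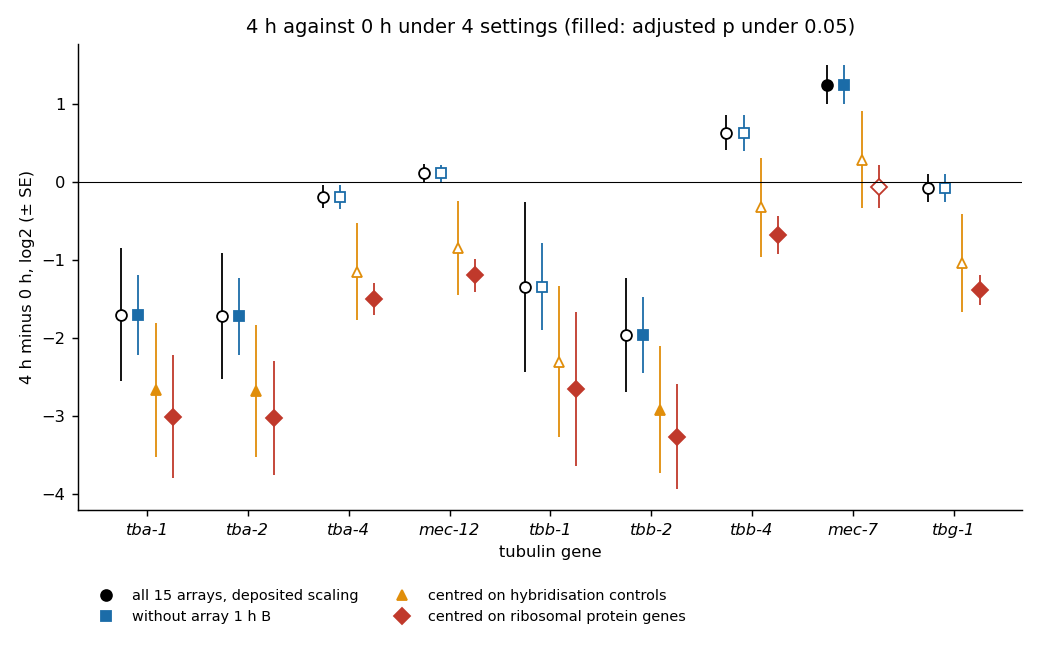
Difference between 4 h and 0 h (vertical axis, log2, with SE) for each tubulin gene (horizontal axis) over all 15 arrays, without array 1 h B, and after centring on the hybridisation controls or on ribosomal protein genes, with filled symbols for adjusted p under 0.05. tba-1, tba-2, tba-4, tbb-1, tbb-2 and tbg-1 lie below 0 in all 4 settings. Omission of 1 h B cannot change a difference, and the centrings lower the median of all probe sets to -0.86 and -1.21. tba-4 (-0.19) and tbg-1 (-0.081) are near 0 over all arrays, and tbg-1 reached 0.32 in a setting not shown. mec-7 is at 1.24 over all arrays and at -0.065 with ribosomal protein centring.

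Maternal and neuronal tubulins were then set against each other within each array, where a constant added to all values of an array cancels. An array effect that moves bright genes more than dim ones does not cancel. Quantile normalization, which moves genes unequally, can change such a difference. With 3 arrays against 3 the exact two-sided permutation test cannot go below 0.1, so none of the 6 pairs could reach the threshold. From 0 h to 4 h mec-7 gained 3.20 on tbb-2 (3.36 after quantile normalization), with no overlap between the 4 h arrays (-3.43, -2.75 and -2.45) and the 0 h arrays (-6.73, -5.60 and -5.90). That is the smallest p the design allows (exact permutation p = 0.1, and 0.15 adjusted over the 6 pairs).

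mec-12 gained 1.83 on tba-2 and tba-4 gained 1.53 on tba-2, each with the same exact p and no overlap. On 1 h B these differences were -3.81 and -5.12, above every 4 h array (highest -5.26 and -6.74). For tbb-4 and tbb-2 the shift of the values as read was 2.59, also with that p and no overlap, but tbb-4 exceeded the background mark on 1 of the 3 arrays at 0 h, so its gain was not measured from a level above background. mec-12 and tba-4 themselves differed by 0.11 and -0.19 between 4 h and 0 h, tba-2 by -1.72. tba-4 averaged 3.87 at 0 h, so close to the background mark that a fall as deep as that of tba-2 could not have been measured. Some gain of tba-4 on tba-2 was therefore set by background, and the pair cannot show whether tba-4 fell with tba-2. Between the β-tubulin genes of the early embryo, tbb-1 gained 0.61 on tbb-2 (exact permutation p = 0.2, adjusted p = 0.24), with 1.04 ± 0.24 at 4 h and 0.43 ± 0.34 at 0 h (SD, n = 3 each). The difference between tba-1 and tba-2 shifted by 0.017 (exact permutation p = 1), with -1.59 ± 0.18 at 4 h and -1.60 ± 0.49 at 0 h (SD, n = 3 each).

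**Figure D4:**
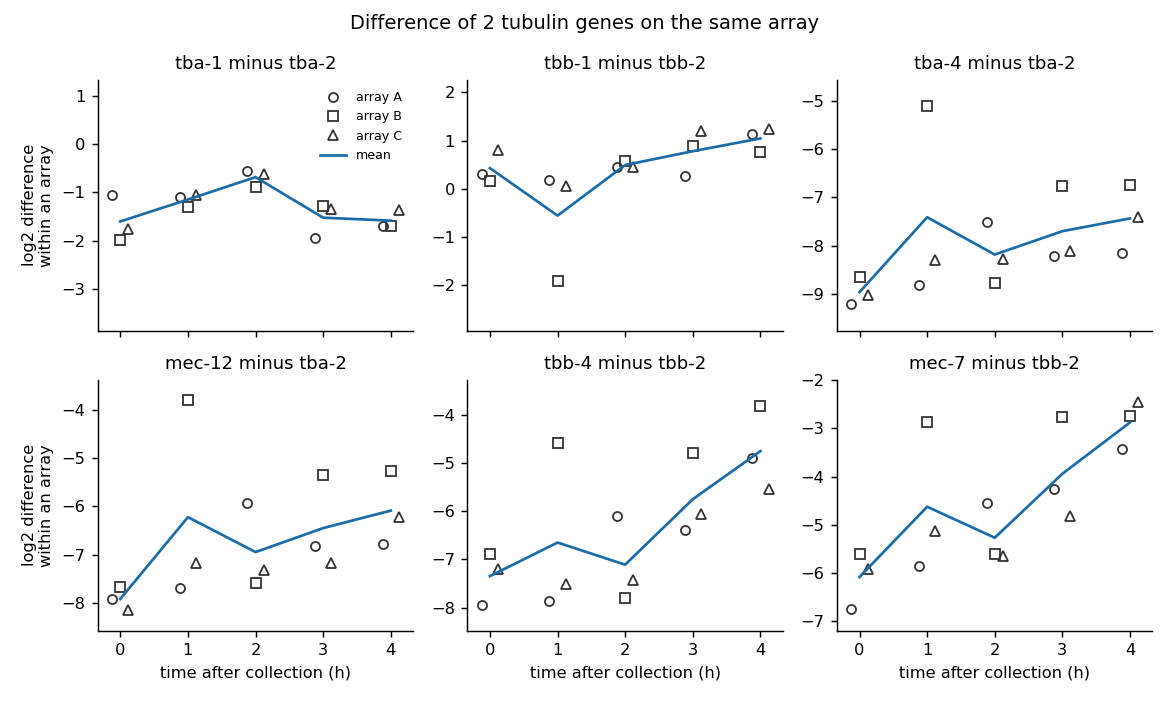
Difference between the log2 values of 2 tubulin genes on the same array (vertical axes, all spanning the same range) at 0 to 4 h (horizontal axis), with 1 symbol per array and the mean as a line. mec-7 minus tbb-2 shifts by 3.20 between 0 h and 4 h with no overlap of their arrays, and tba-1 minus tba-2 by 0.017. On 1 h B and 3 h B mec-7 minus tbb-2 is within the range of the 4 h arrays.

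The remaining tubulin genes of the worm gave little signal. Of these 7 genes, limma called ben-1 lower at 4 h, the β-tubulin gene through which benzimidazole drugs act on worms. It measured 3.29 ± 0.24 at 4 h and 4.57 ± 0.46 at 0 h (SD, n = 3 each), a difference of -1.28 ± 0.37 (SE, adjusted p = 0.0310), and its other probe set was also called. Called lower were 9.57% of all probe sets. The ben-1 call ended without 0 h A, 0 h C or any one 4 h array. The other 6, tba-5, tba-6, tba-7, tba-8, tba-9 and tbb-6, differed by -0.31 to 0.38, and 2 of them stayed at or below the background mark at every time. The list's median difference was -0.13, against 0.094 over all probe sets.

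Genes that fold, modify, bind or organise microtubules were read from 4 more lists. Of 11 measured genes of tubulin folding, 1 rose and 2 fell (list median -0.025), against 7.11% higher and 9.57% lower of all probe sets. The folding cofactor genes tbca-1 and tbce-1, which act on β- and α-tubulin, fell by 2.63 and by 2.37 on the log2 scale at 4 h. tbca-1 measured 6.30 ± 0.40 at 4 h and 8.93 ± 0.65 at 0 h, and tbce-1 measured 6.00 ± 0.56 at 4 h and 8.37 ± 0.38 at 0 h (SD, n = 3 each), and both calls were made in all 26 other settings. evl-20, an ARL2-like GTPase gene of microtubule formation, rose by 1.07 ± 0.20 (SE, adjusted p = 0.00209), a call that ended with arrays placed by their tags or centred on the hybridisation controls, and the value was -0.24 with ribosomal protein centring.

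Of 13 measured genes of the γ-tubulin complex and centrosome, 3 fell (list median -0.58), against 9.57% of all probe sets: air-1, the Aurora A kinase gene, by 1.67 (adjusted p = 0.00304), sas-6, a centriole assembly gene, by 1.42 (adjusted p = 0.00995), and zyg-1, the kinase gene that starts centriole duplication, by 0.98 on the log2 scale (adjusted p = 0.0186). The zyg-1 call ended in 5 of 26 settings, among them array placement by tags, the arrays of the 2 times alone and the omission of 0 h A. Of 9 tubulin modification genes ttll-12 fell by 1.18 on that scale (adjusted p = 0.00489, list median 0.011), to 2.72 ± 0.31 at 4 h, against 3.90 ± 0.37 at 0 h (SD, n = 3 each). All 4 h arrays were at or below the background mark for ttll-12, so it was at least 1.60-fold lower, with the mark as the floor of each array. mec-17, the acetyltransferase gene for α-tubulin in touch receptor neurons, read 2.63 ± 0.08 at 4 h and 2.64 ± 0.08 at 0 h, both within background.

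Of 20 measured genes that bind, move on or sever microtubules, 2 fell and 1 rose (list median -0.051), against 9.57% lower and 7.11% higher of all probe sets. mei-2, a subunit of the katanin that severs microtubules in the meiotic spindle, fell by 4.70 on the log2 scale, to 4.23 ± 0.69 at 4 h, against 8.93 ± 0.36 at 0 h (SD, n = 3 each). The spastin gene spas-1 fell by 2.02 on that scale (adjusted p = 0.00235), as did its other 2 probe sets, and mei-1, the catalytic partner of mei-2, differed by -1.30 (adjusted p = 0.163). cls-3, a CLASP gene, rose by 0.74 ± 0.23 (SE, adjusted p = 0.0438), a call that ended in 15 of 26 settings and a value that turned below 0 with both control centrings, to -0.57 with ribosomal proteins. At 2 h the difference of cls-3 from 0 h was larger, 2.18 by limma (adjusted p = 1.8e-05). Together the 5 lists gave 2 genes higher and 9 lower of 60 measured, with a median difference of -0.12, beside 7.11% higher and 9.57% lower of all probe sets. Without 1 h B the counts were 2 and 13, beside 1859 higher and 2407 lower of all 22548 probe sets.

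Markers of the cells that use mec-7, mec-12 and tbb-4 were in part at background. Of 13 touch receptor neuron genes 5 were at or below the background mark at every time, among them mec-4, the touch channel subunit, with 2.89 ± 0.16 at 4 h and 2.91 ± 0.14 at 0 h (SD, n = 3 each). mec-3, the homeobox gene that specifies these neurons, read 3.45 ± 0.12 at 4 h and 3.02 ± 0.14 at 0 h (difference 0.43, adjusted p = 0.126). Between 4 h and 0 h limma called 1 of the 13 higher and 1 lower, against 7.11% and 9.57% of all probe sets. The higher one was mec-6 (1.11 ± 0.32, SE, adjusted p = 0.0306), with all 0 h arrays at or below the background mark, so that it was at least 1.36-fold higher. The mec-6 call ended in 10 of 25 settings, among them the omission of 4 h A or of any one 0 h array. mec-15 fell by 2.17 on the log2 scale (adjusted p = 0.00300), and the homeobox gene alr-1 rose at 2 h by 2.28 over 0 h (adjusted p = 0.00134), with 0.63 at 4 h over 0 h (adjusted p = 0.367). The summed level of the list ran from 7.75 to 7.88 at 4 h and from 8.69 to 8.97 at 0 h, where mec-15 alone averaged 8.47.

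Of 15 general neuron genes limma called 1 higher and 0 lower, against 7.11% and 9.57% of all probe sets. The 1 called was unc-119, higher by 1.73 ± 0.40 (SE, adjusted p = 0.00808), and 6 of the 15 were at or below the background mark at every time. The unc-119 call ended in 3 of 26 settings, with arrays placed by their tags and with centring on either kind of control. Other members were bright, such as the synaptobrevin gene snb-1 with 8.35 ± 0.55 at 4 h and 8.29 ± 0.22 at 0 h (SD, n = 3 each). Their summed level ran from 9.12 to 9.67 at 4 h and from 8.92 to 9.06 at 0 h. Of 14 cilium genes, 4 of them at or below the background mark at every time, limma called 0 (16.7% of all probe sets), with 2 at an unadjusted p under 0.05. The summed level of the cilium genes ran from 7.45 to 8.20 at 4 h and from 7.27 to 7.64 at 0 h. The part of neuron number in the mec-7 value was not tested, and in whole embryos more cells of a type and more RNA per cell cannot be told apart. Of 10 markers of the adult mother and of sperm limma called 0 (16.7% of all probe sets), with 0 at an unadjusted p under 0.05. The summed level of these markers ran from 7.01 to 7.18 at 4 h and from 7.13 to 7.75 at 0 h.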

How the data were processed

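Biotin-labelled total RNA was measured on 1-colour Affymetrix arrays of C. elegans. The authors deposited log2 values for 22625 probe sets on each of the 15 arrays. RMA produced them according to the submitters' processing notes, per the labels. Its version and the genome build are not given in the sources used here, so no coordinates are printed. The scale follows from the range of the values, 1.77 to 14.2, and array medians were 3.17 to 3.42. With 3 arrays per time, their number limits the precision.

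The hour in the title gave each array its group. Without the 77 Affymetrix controls, 22548 probe sets were tested: 20810 with 1 gene symbol, 843 with several and 895 with none. Entrez identifiers linked the symbols to a RefSeq gene table. One linear model over all times was fitted with lmFit and eBayes (limma 3.58.1, R 4.3.3), p-values were adjusted by Benjamini-Hochberg over all probe sets, and an adjusted p under 0.05 was called. The procedure was also run on simulated data with independent normal noise for each probe set. These held no array effect shared by genes, so the run does not cover such effects. Pairs of genes were compared by an exact permutation test over arrays. Alternatives were array grouping and omission, 4 scalings, a replicate block, a filter on dim probe sets, eBayes options, array weights and other probe sets.

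The tubulin genes and gene lists were chosen with earlier results of these data known. Named were all 9 tubulin genes, the 3 genes with the highest correlation to each tubulin gene that passed the F test, list members past the threshold, and defining markers.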

Additional observations from a re-analysis of the deposited data

How the results depend on the processing

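Over 26 settings the call for tbg-1 at 2 h against 0 h was kept in all, with values from -2.56 to -0.95, and that for mec-7 at 4 h against 0 h in 24. The number of the 9 tubulin genes called between 4 h and 0 h, 1 over all arrays, was 4 without 1 h B, 4 without 1 h B and 1 h C, 8 with ribosomal protein centring, 3 with hybridisation control centring, 3 with the arrays of the 2 times alone, 4 with array weights (chosen after seeing the data) and 0 with the dimmest probe set per gene. Leaving out each array in turn gave 1 to 4. With ribosomal protein centring 89.6% of all probe sets were called lower at 4 h. Hybridisation control centring gave 2 calls for 1 h against 0 h (12.6% of all probe sets) and 3 for 3 h against 0 h (14.2%), and 0 for 2 h against 1 h and for 3 h against 2 h. Ribosomal protein centring gave 7 for 2 h against 0 h (92.2%), 9 for 3 h against 0 h (90.3%), 5 for 2 h against 1 h (85.3%) and 8 by the F test (95.5%). For 3 h against 0 h the count was 1 without 1 h B (17.6%) and 1 without both arrays (16.8%), and 0 to 1 with single arrays left out. Placing the arrays by their tags gave 0 for 2 h against 1 h (0.00443%), 0 for 3 h against 2 h (0.0355%) and 0 by the F test (9.73%). For 4 h against 3 h the count was 1 with array weights (1.49%) and 0 to 1 with single arrays left out. The F test called 4 without 1 h B (21.6%), 5 with array weights (29.6%), 1 with median centring, 1 with the dimmest probe sets and 1 to 4 with single arrays left out.

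With ribosomal protein centring the 4 h minus 0 h differences became -1.20 for mec-12, -0.68 for tbb-4 and -0.065 for mec-7. At 2 h against 0 h mec-12 became -1.23 and mec-7 -0.91, at 3 h against 0 h mec-7 became -0.82 and tbg-1 -1.12, and at 2 h against 1 h tba-4 became -0.96, mec-12 -0.91 and tbb-4 -0.93. Of the 60 microtubule list genes, 2 higher and 9 lower, ribosomal protein centring gave 0 and 53, array weights 4 and 15. Of all 22548 probe sets the first of these settings called 583 higher and 20197 lower, the second 2347 and 2583. The higher count was 5 with quantile normalization (1749 of all probe sets), 0 with tags (1023) or hybridisation control centring (313), and 1 without both arrays (1740). It was also 1 with median centring (1260), eBayes trend (1597) or the replicate block (1536), and 1 to 3 with single arrays left out (1245 to 1859). The shift between tba-1 and tba-2 ran from -0.17 to 0.29.

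Arrays of the same letter deviated from their time means with correlations from -0.31 to 0.34 (median 0.028). For arrays of different letters these ran from -0.36 to 0.41 (median 0.0041). Whether a letter marks shared mothers or days is not stated, and such correlations cannot exclude it. The replicate block left each tubulin count as it was, 1 for 4 h against 0 h. Depth cannot be given for arrays, and signal over background limits tba-4, tbb-4 and the dimmer mec-7 probe set. The causes of these changes were not tested.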
